A study of Mus musculus with 8 samples.

Results

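The choroid plexus epithelium is the sheet of cells in the brain ventricles that makes cerebrospinal fluid, and 10 genes known for their expression in it were read here in mouse striatum: Ttr, Folr1, Kl, Clic6, Kcnj13, Aqp1, Slc4a5, Otx2, Enpp2 and Sostdc1. The genes were listed by name, with earlier results of these data known. Every non-control probe whose gene name in the array files is one of these symbols was taken. This gave 15 probes for 10 genes of 39429 probes and 30175 gene names on the array. The samples were striatal RNA of adult female C57Bl/6j mice, 4 labelled wildtype and 4 labelled Brd2+/-, whose single intact Brd2 copy faces a copy disrupted by a gene trap. Both genotypes came from matings of heterozygous parents after repeated backcrossing, per the labels. Each of 4 2-colour Agilent arrays carried a pair of replicates of the same genotype, replicates 1 and 3 in the Cy3 dye and replicates 2 and 4 in Cy5. The tissue label names prefrontal cortex as well as striatum. The labels do not say whether a sample came from 1 mouse or several, so a p-value here reflects only how much these samples vary, and part of that may be technical.

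The choroid plexus hangs into the ventricles, and its lateral ventricle fronds lie against the inner face of the striatum. Its epithelial cells move sodium, chloride, bicarbonate and water from blood to cerebrospinal fluid, carry vitamins across, and secrete hormone carriers and signalling proteins into the fluid. Bulk striatal RNA can hold their transcripts where fragments of the plexus come with the dissected tissue, and several of the 10 genes have other sources in brain, such as oligodendrocytes for Enpp2. Comparing their levels between the genotypes asks how much of this signal each dissection held. In bulk samples, fewer cells of a type and less RNA per cell cannot be told apart.

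The sequences shown are array probes that hold the end of a coding frame, so that the part of each transcript read is visible. Both are 60 bases long and lie on the minus strand of mm9, and both read through in their first frame to a stop codon, in capitals, at the final bases. The Enpp2 probe A_55_P2055597 (chr15:54670921-54670980) reads the secreted enzyme autotaxin. The Kcnj13 probe A_55_P2081050 (chr1:89282991-89283050) reads the potassium channel Kir7.1.
Enpp2: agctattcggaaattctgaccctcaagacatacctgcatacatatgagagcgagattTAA
Kcnj13: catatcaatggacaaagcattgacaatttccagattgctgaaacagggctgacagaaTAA

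The library labelled heterozygous replicate 3 stood apart from the others before any member was compared. Its values correlated with those of its second closest library at r = 0.965 across probes, against at least 0.984 for each of the other 7, and 37.7% of its spots were well above background against 43.6% to 47.6% in the other Cy3 samples. Brd2 itself, read by probe A_55_P1958678, had a log2 level of 12.86 ± 0.22 in wildtype (SD, n = 4) and of 12.00 ± 0.39 in Brd2+/- (SD, n = 4). Its difference between the genotypes had a limma adjusted p of 0.390. In that library Brd2 was at 12.57, which is 81.9% of the wildtype mean. This lay below the 4 wildtype values (12.64 to 13.10) and above the other heterozygous values (11.70 to 11.92). By Brd2 the genotype label of that library is in doubt. The only probe called over all tested probes, of Btbd9, was at 8.50, 8.64, 8.65 and 8.55 in wildtype samples. Heterozygous samples were at 10.49, 10.58, 9.98 and 10.58 there, and that library, the third, lay with them. That probe was found with the labels as given, and whether the label is right was not tested. The genotype differences of the members and lists are given with that library and without it. All levels below are log2 of background-corrected, dye- and array-normalized intensity, in the order replicates 1 to 4. A difference is heterozygous minus wildtype on that scale, from limma over all tested probes with the dye as a covariate, and its adjusted p is Benjamini-Hochberg's over the same probes.

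No member differed between the genotypes by that test. Of the 15 probes, 14 were well above background in at least 4 of the 8 samples and were tested, and they covered all 10 genes. None of the 14 had an adjusted p under 0.05, where 0.00395% of 25325 probes did (1 probe, of Btbd9). None had an unadjusted p under 0.05 either, where 8.88% of all probes did (4.06% higher and 4.83% lower). The smallest adjusted p of a member was 0.655, and wildtype and heterozygous samples overlapped at all 15 probes, where over all probes the groups did not overlap with heterozygous higher at 1.9% and lower at 2.92%. Taking the brightest tested probe of each gene, the difference was above 0 for 9 of 10 genes, against 46.3% of all probes, with a median of 0.51 (range -0.18 to 0.93) against -0.02 over all probes. Without the library labelled heterozygous replicate 3, 6 of 10 were above 0, against 48% of all probes, and the median was 0.03 (range -0.34 to 0.12) against -0.01 over all probes.

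**Figure D1:**
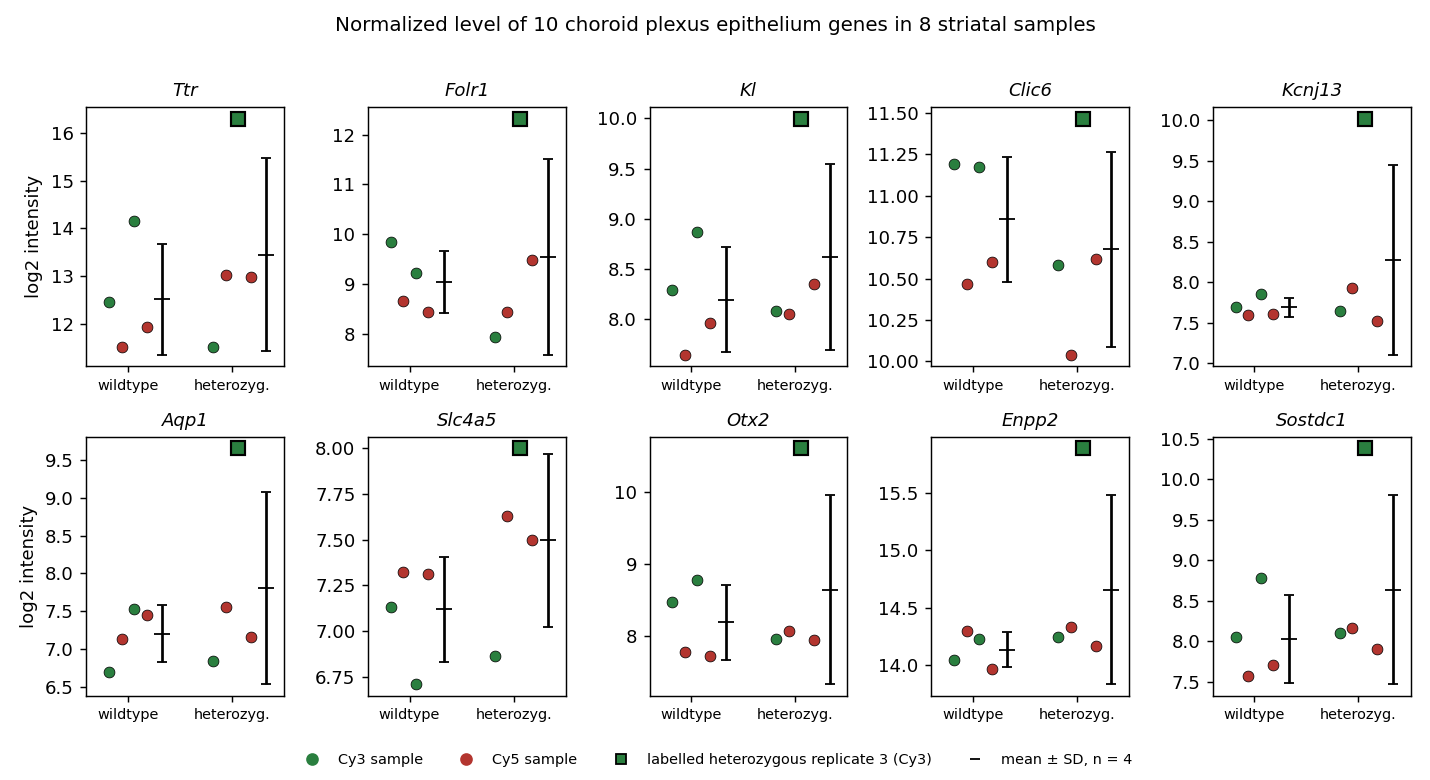
Log2 normalized intensity of the brightest tested probe of each of the 10 genes in each of the 8 samples, green for Cy3 and red for Cy5, with the mean ± SD of each genotype (n = 4) beside the points. The square, the library labelled heterozygous replicate 3, is the highest point in every panel, from 16.29 for Ttr to 7.997 for Slc4a5, where it was not well above background.

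The secreted proteins came first. Ttr encodes transthyretin, the carrier of thyroid hormone and retinol-binding protein that the choroid plexus releases into cerebrospinal fluid, and its probe A_65_P19832 lies on chromosome 18 (mm9, 20828519 to 20828577, plus strand). Ttr was at 12.47, 11.53, 14.15 and 11.94 in wildtype samples and at 11.52, 13.02, 16.29 and 12.99 in heterozygous samples. The groups overlapped: heterozygous replicate 1 held the lowest value of all 8, wildtype replicate 3 the second highest, and the library labelled heterozygous replicate 3 the highest, 4.39-fold above the next and 11.9-fold above the mean of the other 3 Cy3 samples. Wildtype samples averaged 12.52 ± 1.15 (SD, n = 4), so Ttr varied widely within a genotype too. The difference was 0.93 (SE 0.911, limma adjusted p = 0.765) with all samples and 0.08 (SE 0.743, adjusted p = 0.976) without that library.

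Enpp2 encodes autotaxin, which makes lysophosphatidic acid outside the cell, and its probe is the one printed above. Its level was 14.04, 14.29, 14.22 and 13.97 in the wildtype samples and 14.24, 14.33, 15.89 and 14.17 in the heterozygous ones. Outside the library labelled heterozygous replicate 3 the 7 values lay close together and the genotypes interleaved, while that library was 2.94-fold above the next highest. The difference was 0.53 (SE 0.344, limma adjusted p = 0.663), and 0.11 without that library.

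Sostdc1 encodes a secreted antagonist of bone morphogenetic protein and Wnt signalling. Its probe A_55_P2151388 (chromosome 12, mm9, 37044197 to 37044256, plus strand) gave 8.06, 7.57, 8.78 and 7.71 in the wildtype samples and 8.11, 8.16, 10.38 and 7.91 in the heterozygous ones. Wildtype replicate 3 was the second highest, as for Ttr, and the library labelled heterozygous replicate 3 was 3.04-fold above it. The difference was 0.61 (SE 0.440, limma adjusted p = 0.688), and 0.11 without that library. A further probe of the gene, A_55_P2158121, starts 335 bases downstream and gave 8.34, 7.87, 8.31 and 7.77 against 7.84, 7.78, 8.55 and 7.70. There the same library was still the highest but only 1.15-fold above the next, and the difference was -0.11 (SE 0.154), and -0.24 without that library, so the probes of Sostdc1 disagree in size and in sign.

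The receptors at the cell surface were next. Folr1 encodes folate receptor alpha, which takes folate across the plexus into the fluid. Its brighter probe A_55_P1977792 (chromosome 7, mm9, 109006846 to 109006905, minus strand) was at 9.84, 8.66, 9.21 and 8.43 in the wildtype samples and at 7.93, 8.43, 12.32 and 9.48 in the heterozygous ones. The highest value, 5.56-fold above the next (wildtype replicate 1), was in the library labelled heterozygous replicate 3. Heterozygous replicate 1 was the lowest of all and the only sample not well above background. The difference was 0.50 (SE 0.815, limma adjusted p = 0.864) with all samples and turned to -0.34 (SE 0.491, adjusted p = 0.815) without that library. The other Folr1 probe, A_52_P584335, lies 10126 bases away and was nearly flat, at 7.75, 7.71, 7.73 and 7.85 against 7.48, 7.66, 7.92 and 7.63. Its difference was -0.09 (SE 0.120), and -0.19 without that library, and only the 4 Cy5 samples had it well above background.

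Kl encodes klotho, the co-receptor for fibroblast growth factor 23, and is read by probe A_52_P439358 (chromosome 5, mm9, 151795712 to 151795771, plus strand). It was at 8.30, 7.65, 8.87 and 7.97 in the wildtype samples and at 8.08, 8.06, 9.996 and 8.35 in the heterozygous ones. Wildtype replicate 3 was again second, 2.18-fold below the library labelled heterozygous replicate 3, and the remaining samples of both genotypes overlapped. The difference was 0.42 (SE 0.373, limma adjusted p = 0.738), and 0.05 without that library.

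The channels and transporters of the epithelium made up 4 of the genes. Clic6 encodes a chloride intracellular channel protein, and its probe A_52_P447284 (chromosome 16, mm9, 92541363 to 92541422, plus strand) was at 11.19, 10.47, 11.17 and 10.60 in the wildtype samples and at 10.58, 10.04, 11.47 and 10.62 in the heterozygous ones. By brightest tested probe, Clic6 was the member with the least excess in the library labelled heterozygous replicate 3, 1.21-fold above the next highest. It was also the only gene with a difference below 0 by its brightest tested probe, -0.18 (SE 0.208, limma adjusted p = 0.798), and -0.34 without that library.

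Kcnj13, the Kir7.1 potassium channel of the apical membrane, was read by a pair of probes whose starts lie 132 bases apart. The brighter, A_55_P2066878 (chromosome 1, mm9, 89282859 to 89282918, minus strand), gave 7.69, 7.60, 7.86 and 7.61 in the wildtype samples and 7.65, 7.93, 10.02 and 7.52 in the heterozygous ones. The probe printed above, A_55_P2081050, gave 7.16, 7.30, 8.10 and 7.22 against 7.39, 7.73, 10.26 and 7.23. At both probes the library labelled heterozygous replicate 3 was alone above the others, by 4.23-fold and 4.50-fold over the next highest, and the other 7 samples overlapped. The differences were 0.59 (SE 0.465, limma adjusted p = 0.708) and 0.71 (SE 0.575, adjusted p = 0.716). Without that library they were 0.01 and 0.03.

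Aqp1 encodes the water channel of the apical membrane. Its probe A_51_P125205 (chromosome 6, mm9, 55298480 to 55298539, plus strand) was at 6.71, 7.14, 7.53 and 7.45 in the wildtype samples and at 6.85, 7.56, 9.65 and 7.16 in the heterozygous ones. Only 1 wildtype and 3 heterozygous samples had it well above background, so most of its low values lie at the background level. Its highest value was that of the library labelled heterozygous replicate 3, 4.24-fold above the next. The difference was 0.60 (SE 0.563, limma adjusted p = 0.753) and turned to -0.07 without that library.

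Slc4a5 encodes a sodium bicarbonate cotransporter, and its tested probe A_51_P403814 lies on the same chromosome (6, mm9, 83253664 to 83253723, plus strand). It was at 7.13, 7.33, 6.71 and 7.31 in the wildtype samples and at 6.86, 7.63, 7.997 and 7.497 in the heterozygous ones. Only the 4 Cy5 samples were well above background, and among them both heterozygous samples lay above both wildtype ones. The value of the library labelled heterozygous replicate 3 was nominally the highest but was not well above background, so it has no firm rank. The difference of 0.38 (SE 0.236) had the smallest unadjusted limma p of the members, 0.15, with an adjusted p of 0.655, and was 0.12 without that library. The probe A_55_P2032548, which starts 4220 bases away, cleared background in 0 wildtype samples and in 2 heterozygous ones, both Cy5, and was not tested. Its values were 7.28, 7.18, 7.59 and 7.14 against 7.45, 7.15, 7.66 and 7.16, with the genotypes interleaved.

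Otx2, a homeodomain transcription factor that the choroid plexus needs in order to form, was the single regulator among the members. Its brighter probe A_55_P1978571 (chromosome 14, mm9, 49277855 to 49277914, minus strand) was at 8.47, 7.78, 8.78 and 7.73 in the wildtype samples and at 7.96, 8.07, 10.60 and 7.94 in the heterozygous ones. Wildtype replicate 3 was second, and the library labelled heterozygous replicate 3 was 3.52-fold above it. The difference was 0.45 (SE 0.484, limma adjusted p = 0.781) and turned to -0.11 without that library.

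The other Otx2 probe, A_55_P2049052, starts 7097 bases away and gave 7.67, 7.87, 7.81 and 7.87 in the wildtype samples and 7.40, 8.07, 7.25 and 7.75 in the heterozygous ones. It was the only one of the 15 probes at which the library labelled heterozygous replicate 3 was not the highest, and there it was the lowest. Its difference was -0.19 (SE 0.135), and -0.12 without that library. All 60 bases of this probe lie inside an Otx2 promoter window of RefSeq (GRCm38.p6, 300 bases around a listed start), from base 24 of that window, so it lies upstream of that start. The motif TAATCC, the core bound by Otx proteins, was searched on both strands of the promoter windows. Of the members, 5 of 10 matched the RefSeq table with 8 windows, and 1 window, that of Otx2, holds the motif, against 7.06% of 32851 windows of 300 bases. The match is a description of letters and says nothing on binding.

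**Figure D2:**
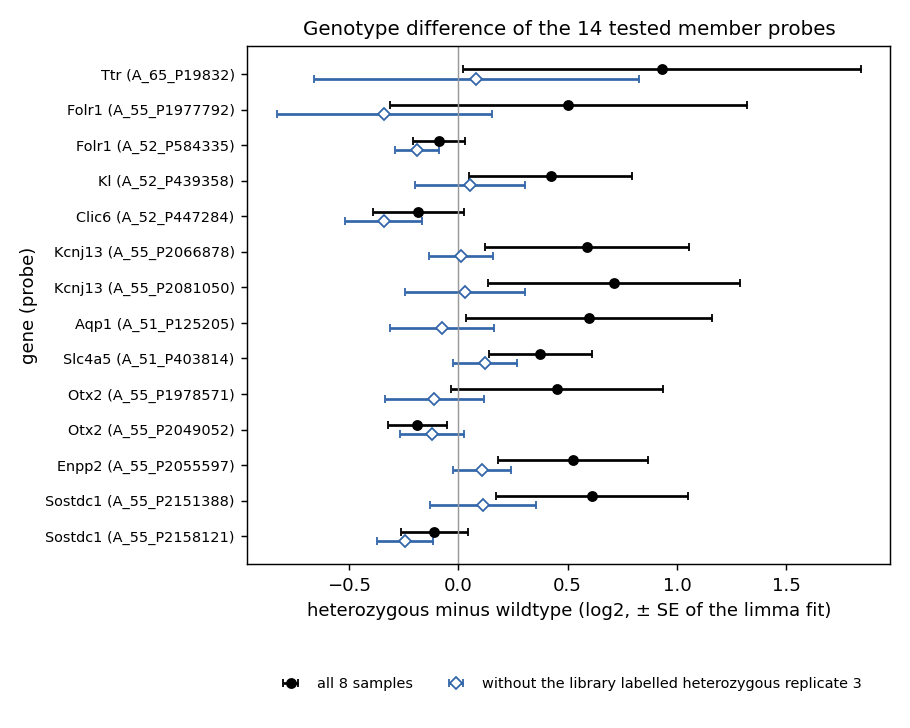
Heterozygous minus wildtype difference in log2 intensity, with its standard error from limma, for each of the 14 tested member probes, with all 8 samples (black) and without the library labelled heterozygous replicate 3 (open blue). With all samples the brightest tested probes run from -0.18 for Clic6 to 0.93 for Ttr, and without that library from -0.34 for Clic6 and Folr1 to 0.12 for Slc4a5.

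The pattern that the members shared was the height of a single library. The library labelled heterozygous replicate 3 was the highest of 8 samples at 14 of 15 probes and for 10 of 10 genes by the brightest tested probe, where it was the highest at 22.1% of all probes. It was well above background at 11 of the 15 probes, for 9 genes, and the highest at all 11. At the other 4, which include the tested Slc4a5 probe, its rank is that of a value near background. It stood at least 1 log2 unit above the next sample for 8 of 10 genes, against 0.989% of all probes, the exceptions being Clic6 and Slc4a5. Over the 10 genes its median excess over the mean of the other 3 Cy3 samples was 2.13 log2, against -0.01 over all probes. At the brightest tested probes of Kcnj13, Aqp1 and Slc4a5 none of those 3 samples was well above background. The excess of these genes is thus taken from values near background. In raw mean intensity, before any normalization, it was the highest of 8 for 8 of 10 genes and the highest of the 4 Cy3 samples for 9 of 10. Clic6 was the exception in both, and Enpp2 in the first. The shares of these counts over all probes were not taken. Raw intensity still holds the background, so for dim genes a rank over both dyes is not firm. At the tested Slc4a5 probe the Cy3 samples (223.4 to 305) all lay above the Cy5 samples (114 to 195.9). Yet only the Cy5 samples were well above background there. The summed intensity of the 10 genes was 154660 there, 3.67 times the highest other sample, against 23038 to 42151 in wildtype samples. Ttr and Enpp2 made up 91.0% of that sum, and between 82.9% and 91.0% in every other sample. The other 8 genes summed to 13928 there, 2.92 times the highest other sample, against 2927 to 4774 in wildtype.

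Outside that library the samples were ordered differently in each dye. Among the other 3 Cy3 samples, wildtype replicate 3 was the highest for 6 of 10 genes, against 36.7% of all probes. Heterozygous replicate 1 was the lowest for 6, a count whose share over all probes was not taken. That sample was well above background for only 3 of the 10 genes. For Folr1, Kl, Kcnj13 and Otx2 its low rank is therefore that of a value near background. Among the 4 Cy5 samples a heterozygous sample was the highest for 10 of 10 genes, replicate 2 for 7 and replicate 4 for 3, against 52.3% of all probes. Both heterozygous samples were above both wildtype samples in Cy5 for 5 genes (Ttr, Kl, Slc4a5, Otx2 and Sostdc1), against 20.1% of all probes, and the Cy5 differences of means ran from -0.20 to 1.27, the largest for Ttr. The Cy3 difference of means for Ttr was 0.59, which includes the library labelled heterozygous replicate 3.

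The levels of the other 9 genes were set against those of Ttr over the 8 samples after the mean of each dye was removed, which made 9 relations, each with an exact permutation p adjusted over the 9. Kl (Pearson's r = 0.97, adjusted p = 0.000781; Spearman's rho = 0.93, adjusted p = 0.0100), Sostdc1 (r = 0.95, adjusted p = 0.000781; rho = 0.98, adjusted p = 0.00357) and Otx2 (r = 0.94, adjusted p = 0.00193; rho = 0.90, adjusted p = 0.0137) followed Ttr most closely by exact test. Aqp1 (r = 0.89, rho = 0.88) and Kcnj13 (r = 0.85, rho = 0.81) followed, with exact adjusted p of 0.00904 and 0.0163 for Aqp1 and of 0.0159 and 0.0392 for Kcnj13, Pearson's first. For Folr1 (r = 0.84, exact adjusted p = 0.0231), Enpp2 (r = 0.80, exact adjusted p = 0.0240) and Slc4a5 (r = 0.75, exact adjusted p = 0.0455) Pearson's r passed and Spearman's rho of 0.52, 0.71 and 0.67 did not, with exact adjusted p of 0.197, 0.0864 and 0.107. With no dye means removed, Pearson's r missed the threshold for Enpp2 (exact adjusted p = 0.0644) and for Slc4a5 (r = 0.50, exact adjusted p = 0.214). Clic6 passed neither (r = 0.57, exact adjusted p = 0.149; rho = 0.52, exact adjusted p = 0.197). The samples share arrays in pairs, so the 8 points are not fully independent.

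Most of these relations rested on the samples at the ends. Leaving out the samples farthest from the median of Ttr, which were heterozygous replicate 1 and the library labelled heterozygous replicate 3, r stayed at 0.91 for Kl (exact adjusted p = 0.025) and 0.88 for Sostdc1 (exact adjusted p = 0.0125). For the rest it was 0.76 for Otx2, 0.63 for Aqp1, 0.41 for Kcnj13, 0.38 for Enpp2, 0.07 for Slc4a5, 0.03 for Folr1 and -0.33 for Clic6, none of them past the exact test. Because the high library also enters the Cy3 mean, the dye effect was fitted again over the 6 samples alone, with genotype in the fit. This choice was made after seeing the data. Both samples left out were heterozygous Cy3 samples, so the fitted dye effect came from the wildtype samples alone. Kl (r = 0.93), Otx2 (r = 0.94) and Sostdc1 (r = 0.96) then passed, each with an exact adjusted p of 0.0375. With no dye means removed, the 6 samples gave 0.92 for Kl and 0.95 for Sostdc1, which missed the threshold (exact adjusted p = 0.0688 and 0.0625), and 0.78 for Otx2 (exact adjusted p = 0.192).

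**Figure D3:**
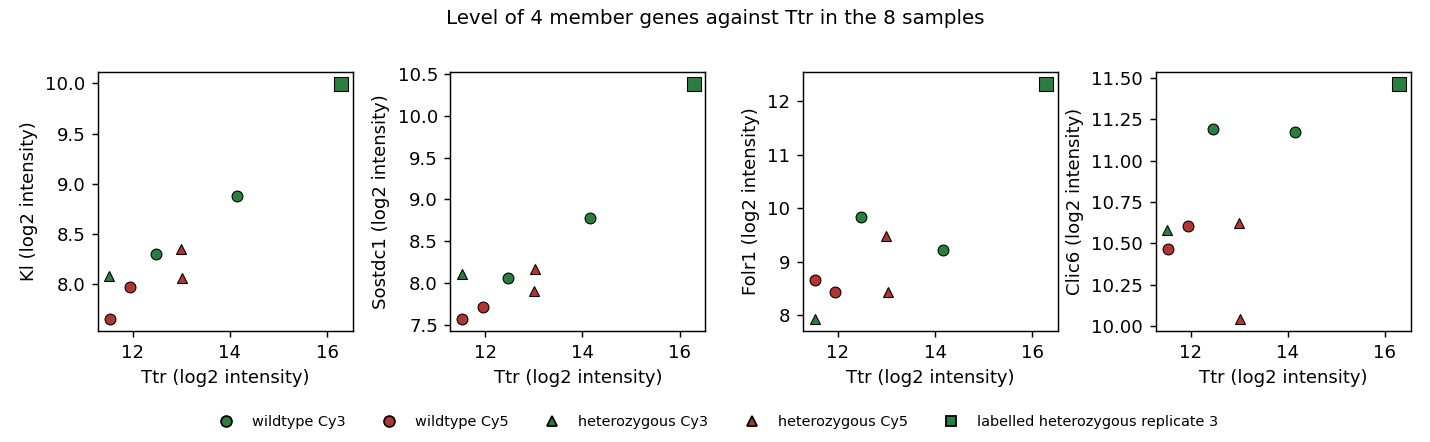
Log2 intensity of Kl, Sostdc1, Folr1 and Clic6 against that of Ttr in the 8 samples, before any dye means are removed, with genotype marked by shape and dye by colour. The square, the library labelled heterozygous replicate 3, is at the upper right of each panel. With it and heterozygous replicate 1 left out and dye means removed, r is 0.91 for Kl and 0.88 for Sostdc1, against 0.03 for Folr1 and -0.33 for Clic6.

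A wider list of choroid plexus epithelium genes, none of them members, was less even. Of its 28 genes on the array 23 were tested, and 0 passed at an adjusted p under 0.05 by limma, with 2 (Igfbp2 and Slc13a4) at an unadjusted p under 0.05, both higher in heterozygous samples. Their median difference was 0.03 (13 above 0 and 10 below), and -0.12 without the library labelled heterozygous replicate 3. That library was the highest sample for 14 of the 23, against 22.1% of all probes, and at least 1 log2 above the next for 7, against 0.989%. Its summed intensity of 38297 was 1.54 times the highest other sample. Igfbp2, an insulin-like growth factor binding protein, was 6.12-fold above the other Cy3 samples there, with a difference of 1.42 (SE 0.433) that was 0.91 without it. Slc13a4, a sodium sulfate cotransporter, was 4.49-fold above them, with a difference of 1.05 (SE 0.396) and 0.64 without it. Igf2, a growth factor of the plexus and meninges, was 1.18-fold above them.

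Further genes of that list were picked after their values were seen. In the library labelled heterozygous replicate 3, the monoamine transporter Slc29a4 was 5.45-fold, the cell cycle inhibitor Cdkn1c 4.44-fold, the keratin Krt18 3.86-fold, the potassium channel subunit Kcne2 3.70-fold and the cation channel Trpv4 3.21-fold above the mean of the other Cy3 samples. Others were near or below those samples: Calml4 at 1.08-fold, the prolactin receptor Prlr at 1.04-fold, Tmem72 at 0.932-fold, the serotonin receptor Htr2c at 0.575-fold and the carbonic anhydrase Car12 at 0.524-fold. The tight junction gene Cldn2 and the transcription factor Lmx1a, both markers of the plexus, were not well above background in any sample.

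Markers of neighbouring tissues and cell types were read beside the members, with 0 genes passing at a limma adjusted p under 0.05 in any of these lists. At an unadjusted p under 0.05, 4 meningeal, 2 thalamic and 5 cortical genes were higher in heterozygous samples and 3 striatal, 2 blood and 1 oligodendrocyte gene lower, with 0 ependymal and 0 endothelial genes. The 10 ependymal genes, which line the ventricle wall, had a median difference of -0.31 (1 above 0 and 9 below), and -0.46 without the library labelled heterozygous replicate 3. That library was the highest for 2 of them and for none by 1 log2, and its summed intensity of 8031 was within the wildtype range of 3716 to 8725. Over all probes it was the highest at 22.1%, and by at least 1 log2 at 0.989%, shares that stand beside the counts of the next lists too. Of 9 meningeal and fibroblast genes tested, with median differences of 0.32 with all samples and 0.22 without it, it was the highest for 3 and for none by 1 log2, with a sum of 82778 against 39245 to 47932 in wildtype and 45043 to 86861 in heterozygous samples. Of 5 thalamus and habenula genes tested, with median differences of 0.23 and, without it, -0.17, it was the highest for 4 and by at least 1 log2 for 2 (Lef1 and Tac2), with a sum of 9409 against 3551 to 4512 in wildtype, and the habenula gene Gpr151 was not well above background anywhere.

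Mature oligodendrocytes also express Enpp2, and their 8 genes had a median difference of 0.10 (6 above 0), which turned to -0.047 (4 above 0) without the library labelled heterozygous replicate 3. Of the 7 genes with a value in all samples, that library was the highest for 5 (22.1% of all probes) and by at least 1 log2 for 2, Ermn and Mag (0.989% of all probes). Their sum was 98315 there, against 47059 to 51693 in wildtype samples. The oligodendrocyte genes were not alike there: the cytoskeletal gene Ermn was 4.34-fold and the myelin glycoprotein Mag 2.32-fold above the other Cy3 samples, while myelin basic protein, Mbp, was at 0.635-fold. The 10 striatal projection neuron genes had differences below 0 in 10 of 10 and a median of -0.43, against 8 of 10 and -0.17 without that library. The sum of the 7 of them with a value in all samples was 170143 there, the lowest of the 8 samples, against 338690 to 399747 in wildtype. The 8 endothelial genes had a median difference of 0.02 (0.06 without that library), with a sum of 20623 to 21943 in heterozygous against 18500 to 24677 in wildtype samples. The 3 blood genes had a median difference of -0.49 (-0.54 without that library). The 6 cortical excitatory neuron genes had a median difference of 1.62 with and without that library. Their sum was 6235 in that library, the lowest of the heterozygous samples. In wildtype it was 1943 and 1597 in Cy3, the dye of that library, and 14110 and 7192 in Cy5. The part of any of these cell types in the members' values was not tested.

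**Figure D4:**
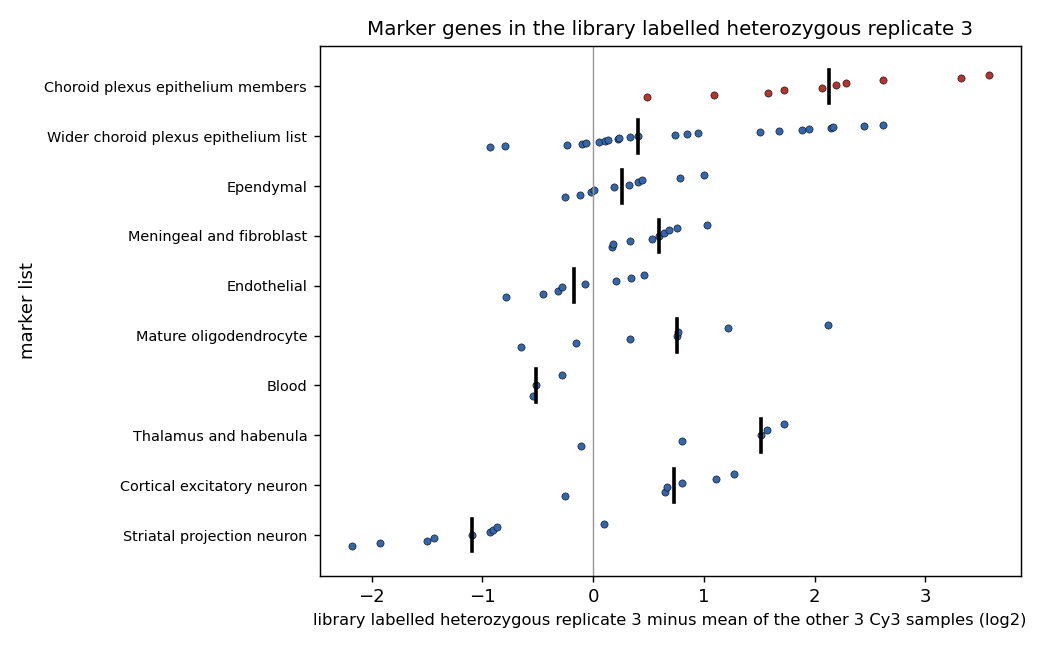
Log2 level in the library labelled heterozygous replicate 3 minus the mean of the other 3 Cy3 samples, with 1 point for each tested gene of each marker list and a black bar at the list's median. The medians are 2.13 for the members, 0.40 for the wider choroid plexus list, 0.26 for ependymal and 1.51 for thalamus and habenula genes, and -1.09 for striatal projection neuron genes.

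The genes whose pattern was most like the members' mean were named by Pearson's r over the 8 samples with the dye means removed, among 14551 genes, as a description. The top 10 were Pnma3 (r = 0.994), Tuba1c (0.993), Cdkn1c (0.993), Fbxo44 (0.990), Fthl17a (0.990), Vangl1 (0.985), Slc1a6 (0.985), Sema3b (0.984), Olfr557 (0.983) and Mthfd2 (0.982). In all of them the library labelled heterozygous replicate 3 was above the mean of the other Cy3 samples, from 1.38-fold for Olfr557 to 4.44-fold for Cdkn1c, the only one of the 10 that the wider list holds. Before the dye means were removed, Olfr557 was at 7.46 in that library, below the highest other sample (7.58). The points share arrays, dyes and that one high library.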

How the data were processed

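Spot intensities were extracted by Agilent Feature Extraction 10.7.3.1 on a linear scale, per the file headers. A table of ratios was deposited too: each value divides a spot's median signal less background by its column's median, as found from the values (all matched within 0.0001), and it served as an alternative. Every sample's values come from the channel of its dye. Mean intensities were corrected with normexp (offset 50), normalized with loess within and Aquantile between arrays, and put on the log2 scale. Each array had 43020 non-control spots beside 1377 controls, and outlier spots (230 to 978 per channel) were left out. Probes well above background in at least 4 of 8 samples were tested with limma 3.58.1 in R 4.3.3, with genotype and dye in the model and the array as a random block (consensus correlation -0.0118). An unadjusted p was read at 0.05. Gene names of the files were updated through RefSeq accessions (27228 probes) or symbols (3581) and otherwise kept (8620). The number of arrays limits the precision.

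The members and marker lists were chosen with earlier results of these data known. Named genes are all members, Brd2, in each marker list the 3 tested genes with the smallest p, plus the 10 genes most like the members' mean; the text prints those that bear on the members, and other genes that it names (Btbd9, further genes of the lists) were picked after their values were seen. Summed intensities of a list cover its genes with a value in all 8 samples. On simulated data from these arrays (23852 probes) the test recovered 60% of 100 probes changed 2-fold and 92% of 100 changed 4-fold, with 17 false calls. The simulated noise was drawn independently for each probe and sample, so no library stood apart there as in the data. These shares therefore do not carry over to the members. In the data Slc17a7, with a difference of 2.15, had a limma adjusted p of 0.373, and the SE of Ttr was 0.911. The main model did not pair the samples by replicate number. Alternatives covered background correction, normalization, filters, dyes, blocks, the deposited ratios and leaving out each sample.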

Additional observations from a re-analysis of the deposited data

Results flagged for a closer look

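In a group of 4 samples, a value was picked out when its gap to the nearest other sample, as a share of the range of the group, was above Dixon's critical value at the 95% level. This held in 8 of the 30 groups examined (15 probes in 2 genotypes). For independent groups chance gives about 1 in 20, but all probes share the same samples and most members move together. The share of flagged groups over all probes was not taken, so the count is a description only. In 7 of the 8 the sample was the library labelled heterozygous replicate 3, at a log2 intensity of 9.996 for Kl, 10.02 and 10.26 at the probes A_55_P2066878 and A_55_P2081050 of Kcnj13, 10.60 for Otx2 (A_55_P1978571), 15.89 for Enpp2, and 10.38 and 8.55 at the probes A_55_P2151388 and A_55_P2158121 of Sostdc1. Its gap was between 0.834 of the range (Kcnj13, A_55_P2066878) and 0.952 of it (Otx2). Ttr, Folr1 and Aqp1 were also highest in this library but their other 3 heterozygous samples were spread more widely. The eighth value was wildtype replicate 3 at the Kcnj13 probe A_55_P2081050, 8.10 against 7.16 to 7.30 in the other wildtype samples.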

How the results depend on the processing

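No member probe tested passed under any of 26 alternatives. The median difference of 0.51 over the 10 genes stayed above 0 in all 26, of which the filter for probes above background in all 8 samples left 3 genes (0.53), and ranged from 0.03 to 0.97 when each sample was left out (0.03 without the library labelled heterozygous replicate 3, 0.97 without heterozygous replicate 1 and 0.79 without heterozygous replicate 4). It was 0.62 in Cy3 samples alone and 0.25 in Cy5 samples alone. Leaving out each sample, the difference ranged from -0.34 to 1.43 for Folr1, from -0.074 to 1.07 for Aqp1, from -0.11 to 0.96 for Otx2 and from -0.34 to 0.015 for Clic6. The low ends came without the library labelled heterozygous replicate 3 and the high ends without heterozygous replicate 1. The other 6 genes stayed above 0. The correlation with Ttr without its 2 farthest samples turned for Clic6 (-0.33, and -0.37 with the dye effect fitted over the remaining samples) and for Slc4a5 with no dye means removed (-0.47). The cause was not tested. Over all probes, 1 was called by limma, 3 with processed signals and quantile normalization, 2 at an adjusted p under 0.1, and 0 with loess without Aquantile, the deposited value table, no filter on dim probes, the brightest probe per gene or Cy3 samples alone. Leaving out 1 sample gave 0 to 1. The median excess of the library labelled heterozygous replicate 3, 2.13 log2, was 1.26 in the deposited value table, 3.20 with processed signals scaled to the 75th percentile and 3.18 with quantile normalization, alternatives added after seeing the data.

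Same-numbered samples of the genotypes did not deviate together (correlations from -0.30 to 0.17), and they were not treated as pairs in the main model. Whether the numbers mark pairs by design cannot be told from so few correlations. With the replicate number as a block, 0 probes were called over all probes and 0 members, and the median difference stayed at 0.51. Low members, such as Aqp1 and the untested Slc4a5 probe, lie near background, where small differences are not detectable with 4 samples a group.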
